A study of Rattus norvegicus with 6 samples.

Results

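The genes described here encode the enzymes that trim procollagen and the proteins that speed this trimming: the C-proteinases Bmp1 and Tll1, the enhancers Pcolce and PCOLCE2, and the N-proteinases Adamts2, Adamts3 and Adamts14. They were followed in rat dermal fibroblasts in culture that received a lentivirus with an shRNA that targets lnc-URIDS, a long non-coding RNA (knockdown, genotype label lnc-URIDS knockdown, 3 samples) or a control lentivirus (genotype label control, 3 samples). Both groups were infected at a multiplicity of infection of 10 and kept in puromycin at 2 µg/mL for 48 h, in a low-glucose medium with serum, and RNA of each sample went to 1 one-colour Agilent array. Strain and age are not given in the sources used here, nor is the share of cells that carried the virus, and nothing says that the samples of a group were separate cultures, so p-values cover only the spread between these samples. Members were chosen by name: a gene probe was taken when its RefSeq accession matched a member's symbol. This gave 7 probes for 4 of the 7 genes, out of 30367 gene probes on the array. Bmp1, Tll1 and Pcolce had 2 probes each and PCOLCE2 had 1 probe, printed as 10 spots. No probe matched Adamts2, Adamts3 or Adamts14 through this table, so the N-proteinases are not analysed here.

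Fibrillar collagens leave the cell as procollagens that carry a globular propeptide at each end, and fibrils form once these are cut off. Bmp1 and Tll1 are zinc metalloproteinases of the tolloid family that remove the C-propeptide, and they also cut other matrix proteins and the BMP antagonist chordin. Pcolce and PCOLCE2 have no proteinase activity of their own; they bind the C-propeptide region and make its cleavage faster. In skin the dermal fibroblast is the main source of these substrates.

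Across arrays, the 75th percentile of the processed signal was 1023 to 1090 units. The share of probes well above background ranged from 68.8% to 74.1%, and 0 gene spots were saturated. With 3 arrays a group, their number limits how precise any difference can be. Slides were inferred: arrays that share a scan identifier in the deposited headers were taken as 1 slide, which gave 2 slides. Slide 1 held controls 1 and 2 and knockdowns 2 and 3, and slide 2 held control 3 and knockdown 1. Of 14 dermal fibroblast markers, 12 were well above background on all 6 arrays, among them Col1a1, Col3a1, Pdgfra and Vim, while Dcn and Lum, usually abundant in dermal fibroblasts, were not well above background on any array. Some markers of other cells were also well above background on 0 arrays. They were Krt1, Cdh1 and Epcam of keratinocytes, and Pecam1, Tie1 and Cldn5 of endothelium. Ptprc, Cd163 and Itgam of macrophages, Tyr of melanocytes and Rgs5 of mural cells were at background too. Others were well above background on all 6 arrays, among them Krt5, Krt14 and Tp63 of keratinocytes, and Cdh5 and Kdr of endothelium. So were Cd68 and Csf1r of macrophages, Sox10 of melanocytes and Schwann cells, and Notch3 of mural cells. Of the markers matched, 3 of 6 for keratinocytes, 2 of 7 for endothelium, 4 of 8 for macrophages, 7 of 8 for mural cells and 5 of 6 for melanocytes and Schwann cells were well above background on all 6 arrays. The targeted transcript was not analysed here, so the knockdown itself was not checked.

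Both enhancers gave higher signals on all 3 knockdown arrays than on any control array, whereas the C-proteinases overlapped between groups. On this measure 3 of the 7 member probes did not overlap, all higher in knockdown, against 22.4% of the 20773 tested probes that did not overlap in either direction and 11.4% that were higher. The PCOLCE2 probe among these 3 met the background filter only through the knockdown arrays, and of the 286 probes that did so 21.0% were higher without overlap, so the count of 3 is not read as a result. None of the 7 member probes passed the test over the array, where 0% of the tested probes were called. PCOLCE2 had the largest difference among them, 2.44-fold, on a signal close to background. The sequences upstream of the start sites of both enhancer genes are shown because these are the 2 members whose groups did not overlap on the scaled signal. This is a choice of display and not a result. They are 250 bases each, 5′ to 3′, from RefSeq on GRCr8, with matches to the GC box GGGCGG (either strand) in capitals.
PCOLCE2, chr8:105072836-105073085, plus strand: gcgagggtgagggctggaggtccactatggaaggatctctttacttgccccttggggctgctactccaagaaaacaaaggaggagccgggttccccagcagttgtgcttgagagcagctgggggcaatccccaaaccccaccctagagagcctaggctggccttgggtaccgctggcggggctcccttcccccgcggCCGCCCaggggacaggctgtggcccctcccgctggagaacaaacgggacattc
Pcolce, chr12:24720722-24720971, plus strand: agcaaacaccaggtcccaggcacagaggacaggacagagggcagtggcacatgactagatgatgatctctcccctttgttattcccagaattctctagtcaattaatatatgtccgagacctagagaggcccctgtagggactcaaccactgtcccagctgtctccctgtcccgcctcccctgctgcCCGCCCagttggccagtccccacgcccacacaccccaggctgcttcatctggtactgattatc

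Each window held 1 match to GGGCGG, a motif found in 30.5% of the 33469 upstream windows of that length in the table, and no match to CCAAT (34.0% of windows) or TATAAA (12.9%), searched on both strands. The GC content was 64% for PCOLCE2 and 56% for Pcolce, against a median of 51.2% over all windows. The Tll1 window had 43.6% GC and 1 match to CCAAT. These are matches of letters and say nothing of binding. No window was found for Bmp1.

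PCOLCE2, the second procollagen C-proteinase enhancer, was the member that differed most. Its log2 signal relative to the array's 75th percentile was -6.11, -7.29 and -6.60 in controls 1, 2 and 3, and -5.52, -5.12 and -5.49 in knockdowns 1, 2 and 3. Every knockdown array was above every control array, and the controls spread more widely (SD 0.59, n = 3) than the knockdowns (SD 0.23, n = 3). The log2 fold change, knockdown minus control, was 1.29 ± 0.31 (SE, n = 3 per group), with a 95% confidence interval from 1.44-fold to 4.14-fold. It did not pass when adjusted over all 20773 tested probes (limma adjusted p = 0.202, unadjusted p = 0.00623). The probe met the background filter only through the knockdown arrays, which favours a higher knockdown mean. The interval and the p-values of the filtered fits do not allow for this selection. With no filter, over 30367 probes, the log2 fold change was also 1.29 (limma adjusted p = 0.447, unadjusted p = 0.00939). An exact permutation test gave 0.1, the smallest two-sided p that 3 against 3 arrays allow. With array quality weights it did pass (log2 fold change 1.17, limma adjusted p = 0.0153). Those weights ran from 0.394 for control 2 to 5.92 for knockdown 3. Over the array they called 2042 probes higher and 2551 lower, against 0 in the reported fit. Within slide 1 the log2 fold change was 1.40 and within slide 2, with 1 array per group, it was 1.08. With slide as a block it stayed 1.29 (limma adjusted p = 0.232).

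**Figure D1:**
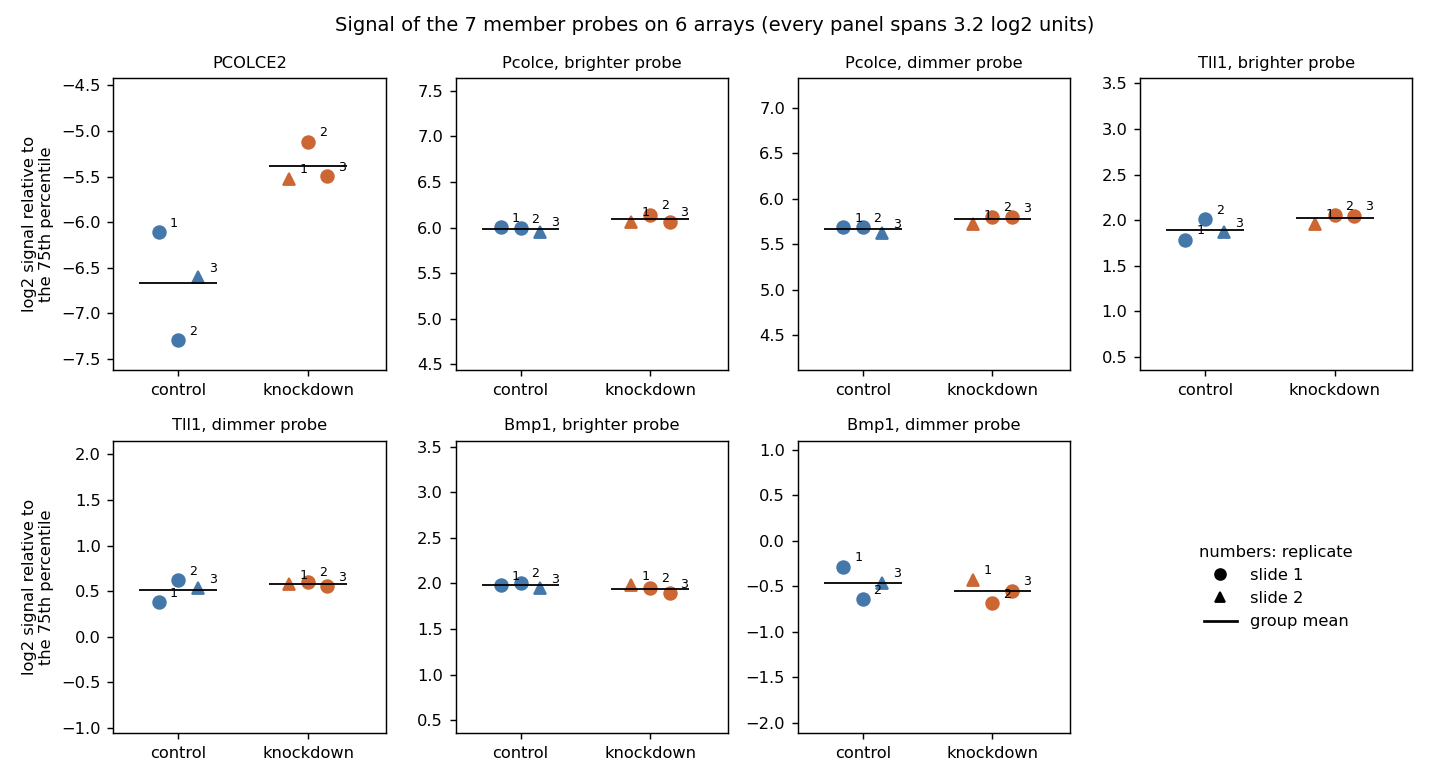
Log2 signal relative to the array's 75th percentile (vertical axis) of each of the 7 member probes on the control and knockdown arrays; each point is 1 array, circles are slide 1, triangles slide 2, numbers are replicates and lines are group means. PCOLCE2 runs from -7.29 to -6.11 in controls and from -5.52 to -5.12 in knockdowns, while the other probes stay within a narrow band.

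PCOLCE2 is a faint probe, and the repeated printing shows how faint. Averaged over unflagged spots, its processed signal was 14.9, 6.96 and 11.1 units in controls 1, 2 and 3, against 22.2, 29.6 and 22.7 units in knockdowns 1, 2 and 3. The number of unflagged spots well above background was 6 of 10, 0 of 9 and 3 of 9 in the controls, and 9 of 9, 10 of 10 and 10 of 10 in the knockdowns. The probe as a whole, averaged over spots, thus passed the background criterion in 1 of 3 controls and in 3 of 3 knockdowns, so it was tested only because of the knockdown arrays. Negative control spots, which match no rat transcript, had a median processed signal of 2.36 to 3.10 units and reached at most 4.11. On all 6 arrays, none of these 136 to 144 unflagged spots was as bright as the mean of the PCOLCE2 spots. The mean log2 signal of the negative controls differed by -0.02 between knockdown and control arrays.

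The raw scanner values also put every knockdown above every control, with a smaller ratio and another order of arrays within each group. Before background subtraction, the median raw signal of the PCOLCE2 spots was 44.5, 39.0 and 46.0 units in controls 1, 2 and 3 and 58.0, 57.0 and 54.25 units in knockdowns 1, 2 and 3, beside 26.0 to 31.0 units for the negative controls. The local background around these spots had a median of 20.5 to 26.0 units. With a normexp background with an offset of 50 units, which shrinks folds of faint probes by construction, the log2 fold change fell to 0.57 (limma adjusted p = 0.644), and to 0.23 with quantile scaling added.

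The direction was the same at every position on the array. At each of the 10 positions the knockdown mean was above the control mean, by 0.82 to 1.82 on the log2 scale, and at 8 positions (7 with raw values) the lowest knockdown array was above the highest control array. The spots are repeats of 1 probe on 1 array and not replicates of the condition. One position was bright on several arrays: spot 8 read 39.8 units in control 2, where it carried an outlier flag, and 56.0 in knockdown 2. Over the 8 positions with no outlier flag on any array, an average chosen after the data were seen, the log2 fold change was 1.28.

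**Figure D2:**
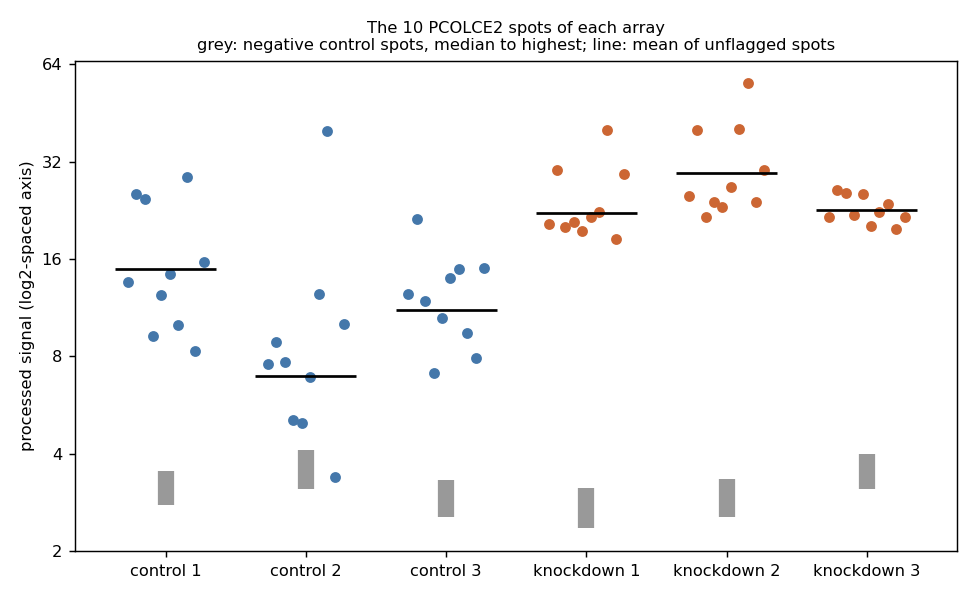
Processed signal on a log2-spaced axis of the 10 PCOLCE2 spots on each of the 6 arrays (points), with the mean of the unflagged spots (lines) and the negative control spots from their median to their highest value (grey bars). Control spots range down to 3.38 units in control 2, within the grey bar, while all knockdown spots lie at or above 18.5 units.

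A single faint probe with this pattern has to be read against the rest of the array. Of all tested probes, 0.236% had a log2 fold change of at least 1 in favour of knockdown, and PCOLCE2 was one of these 49. At an unadjusted limma p under 0.05, 6.94% were higher and 7.66% lower in knockdown. After adjustment 0% passed limma: 0 of 20773 probes, although 3033 (14.6%) had an unadjusted p under 0.05. The smallest adjusted p was 0.0713. Like PCOLCE2, 286 probes were tested through the knockdown arrays only, a selection that favours a higher knockdown mean. Of these, 256 had a higher knockdown mean (median log2 fold change of the 286, 0.30), and 17 had a larger difference than PCOLCE2. Among the 60 that, like PCOLCE2, passed the background criterion on 1 of 3 control arrays, the median was 0.50 and 7 were larger. For the 298 probes tested through the control arrays only, the median was -0.22.

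Pcolce, the first enhancer and a long-known product of fibroblasts, gave a bright and nearly constant signal. On its brighter probe the log2 signal was 6.002, 5.99 and 5.95 in controls 1, 2 and 3 and 6.06, 6.14 and 6.06 in knockdowns 1, 2 and 3. On the second probe it was 5.69, 5.69 and 5.62 in the controls and 5.72, 5.80 and 5.80 in the knockdowns. On this scale both probes were higher on every knockdown array than on any control array. Before scaling the groups overlapped. On the brighter probe control 2 read 69361 processed units, above 68454 and 68470 in knockdowns 1 and 3. On the second probe control 2 read 56135 units, above 53946 in knockdown 1. Knockdown minus control was 0.11 ± 0.04 and 0.11 ± 0.05 on the log2 scale (SE, 3 arrays per group), and neither passed (limma adjusted p = 0.348 and 0.368; exact permutation p = 0.1 for each). The confidence intervals ran from 0.999-fold to 1.16-fold and from 0.995-fold to 1.17-fold. The values were 0.10 and 0.11 within slide 1, and 0.11 and 0.10 within slide 2. The 2 Pcolce probes read the same gene on the same RNA, so they are not independent observations.

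A difference between the enhancers in the size of the change was not established. The PCOLCE2 estimate exceeded that of Pcolce by 1.18 ± 0.36 on the log2 scale (SE, n = 3 per group), and the within-array difference was larger in all 3 knockdowns than in any control. The exact permutation test gave p = 0.1, or 0.333 when adjusted over the 5 pairs of member probes compared, so this contrast did not pass. It also rests on a PCOLCE2 probe that was tested only through the arrays where it was brighter.

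Tll1, tolloid-like 1, had slightly higher means on both probes, with overlapping groups. On its brighter probe the log2 signal was 1.79, 2.01 and 1.87 in controls 1, 2 and 3 and 1.96, 2.05 and 2.05 in knockdowns 1, 2 and 3. The second probe read 0.38, 0.62 and 0.53 in the controls and 0.58, 0.61 and 0.56 in the knockdowns. Control 1 was the lowest array on both probes, while control 2 lay among the knockdowns on the brighter probe and was the highest of all arrays on the second. The differences, knockdown minus control, were 0.13 ± 0.07 and 0.07 ± 0.07 on the log2 scale (SE, 3 arrays per group; limma adjusted p = 0.445 and 0.735). Without control 1 they were 0.08 and 0.0032. The confidence intervals ran from 0.974-fold to 1.24-fold and from 0.930-fold to 1.18-fold.

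Bmp1, the main procollagen C-proteinase of skin fibroblasts, had slightly lower means on both probes, again with overlap. The brighter probe read 1.98, 2.01 and 1.95 in controls 1, 2 and 3 and 1.98, 1.95 and 1.89 in knockdowns 1, 2 and 3. The second probe was more variable, with -0.29, -0.64 and -0.46 in the controls and -0.43, -0.68 and -0.55 in the knockdowns. The differences were -0.04 ± 0.05 and -0.09 ± 0.11 on the log2 scale (SE, 3 arrays per group; limma adjusted p = 0.776 and 0.788), with intervals from 0.901-fold to 1.05-fold and from 0.776-fold to 1.14-fold. Within slide 1 they were -0.07 and -0.15, but within slide 2 both turned to 0.03. Without control 1 the second probe gave -0.0021. Tll1 and Bmp1 differed in their change by 0.17 ± 0.08 on the log2 scale (SE, n = 3 per group; exact permutation p = 0.2, 0.333 adjusted over the 5 pairs). No pair of probes of 1 gene differed in its change by more than 0.07 on the log2 scale (exact permutation p from 0.2 to 1.0).

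**Figure D3:**
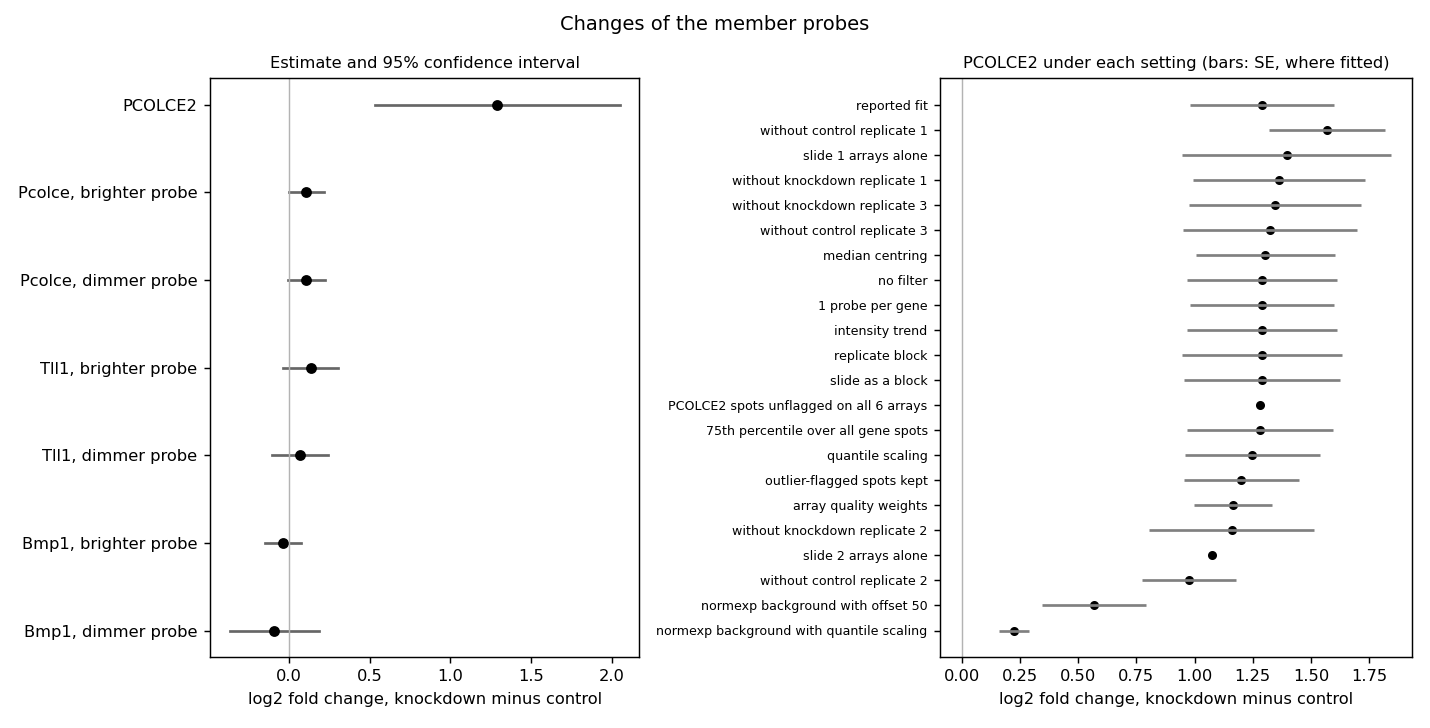
Left, log2 fold change (knockdown minus control, horizontal axis) with its 95% confidence interval for the 7 member probes. Right, the PCOLCE2 log2 fold change under each setting, with SE bars where a model was fitted: it runs from 0.23 with normexp background and quantile scaling to 1.57 without control replicate 1.

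Signal patterns over the arrays were also matched to other genes, as a description over 6 arrays. After each gene was centred on its own mean, the 2 of 10744 named genes closest to PCOLCE2 were Atp2a1, the calcium pump of fast skeletal muscle, and the membrane protein gene Itm2a, with root mean square differences of 0.11 and 0.16 log2 units against a spread of 0.74 for PCOLCE2 itself. Atp2a1 read -2.71, -3.89 and -3.25 in controls 1, 2 and 3 and -2.25, -2.02 and -2.19 in knockdowns 1, 2 and 3, so control 2 was lowest there too. For the other members the nearest genes were Alkbh7 and Exo5 (Pcolce), Tars2 and Apeh (Tll1), and Dusp18 and Rbm45 (Bmp1). Their differences were at most 0.02 log2 units, on members whose own spread over the arrays was only 0.04 to 0.10.

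Among the substrates of these enzymes, the tested fibrillar procollagen chains had means that differed in both directions. Of 11 fibrillar procollagen chains, 7 were matched and tested; 3 had higher and 4 lower means in knockdown, and 0 passed limma over all probes (1 of the 7 had an unadjusted p under 0.05, against 14.6% of all tested probes). Their median log2 fold change was -0.01 (0.02 with quantile scaling), against -0.0007 over all tested probes. Col1a1, Col1a2 and Col3a1, the chains of skin collagens I and III, differed by -0.01 ± 0.06, 0.07 ± 0.07 and 0.05 ± 0.09 on the log2 scale (SE, 3 arrays per group). The Col1a1 sign turned with centring on the median (0.01), and its second probe gave -0.08 ± 0.14. Col5a3, a minor fibrillar chain, read 1.42, 1.75 and 1.53 in controls 1, 2 and 3 and 1.36, 1.13 and 1.30 in knockdowns 1, 2 and 3. These groups did not overlap, and the log2 fold change was -0.30 ± 0.10 (limma adjusted p = 0.286). Col11a2 had 0.15 ± 0.08, and -0.03 ± 0.15 on its second probe.

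Among 20 other proteins reported as substrates of BMP1-like proteinases, 16 were matched and 12 tested. Of these, 5 had higher and 7 lower means, with a median log2 fold change of -0.05, and 0 passed limma over all probes (3 of the 12 had an unadjusted p under 0.05, against the same 14.6%). Chrd, which encodes chordin, read -0.23, -0.28 and -0.25 in controls 1, 2 and 3 and -0.06, -0.07 and -0.04 in knockdowns 1, 2 and 3. It was higher on every knockdown array, by 0.20 ± 0.04 on the log2 scale (SE, 3 arrays per group; limma adjusted p = 0.194). Cdh2, the adhesion molecule N-cadherin, had -0.58 ± 0.20 (limma adjusted p = 0.286). Dcn, which encodes the small proteoglycan decorin, was well above background on 0 arrays, and no probe matched Lox.

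Of 12 partners, activators and inhibitors, 10 were matched and 8 tested, 4 with higher and 4 with lower means (median log2 fold change -0.0015, or 0.01 with median centring); 0 passed limma and 1 of the 8 had an unadjusted p under 0.05, again against 14.6%. Postn, which encodes periostin, a matricellular protein that binds BMP1, read 6.71, 6.52 and 6.58 in controls 1, 2 and 3 and 6.73, 6.88 and 6.82 in knockdowns 1, 2 and 3. The groups did not overlap, though knockdown 1 was close to control 1, and the difference was 0.21 ± 0.07 on the log2 scale (SE, 3 arrays per group; limma adjusted p = 0.273). Furin, the convertase that removes prodomains such as that of BMP1, had -0.06 ± 0.06, and the membrane collagenase gene Mmp14 had 0.02 ± 0.06. Fn1, which encodes fibronectin, gave 0.02 ± 0.04 with 1 probe and -0.12 ± 0.06 with the other. A normexp background turned the signs of Mmp14 (-0.02) and of the first Fn1 probe (-0.03). Twsg1, a chordin partner, had -0.19 ± 0.08, and Timp3, a metalloproteinase inhibitor, had 0.18 ± 0.16.

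Of 18 related proteinases of the tolloid, meprin and ADAMTS families, 12 were matched and 7 tested. Means were higher in 6 and lower in 1 (median log2 fold change 0.02), and 0 passed limma or had an unadjusted p under 0.05 (14.6% over the array). Adamts15 varied most, with 2.49, 1.17 and 1.93 in controls 1, 2 and 3 and 2.64, 2.13 and 2.42 in knockdowns 1, 2 and 3. Its groups overlapped, and its difference was 0.53 ± 0.34 on the log2 scale (SE, 3 arrays per group; limma adjusted p = 0.538), with 0.18 ± 0.30 on its second probe. Adamts1 had -0.13 ± 0.09 and Adamts12 had 0.09 ± 0.07.

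**Figure D4:**
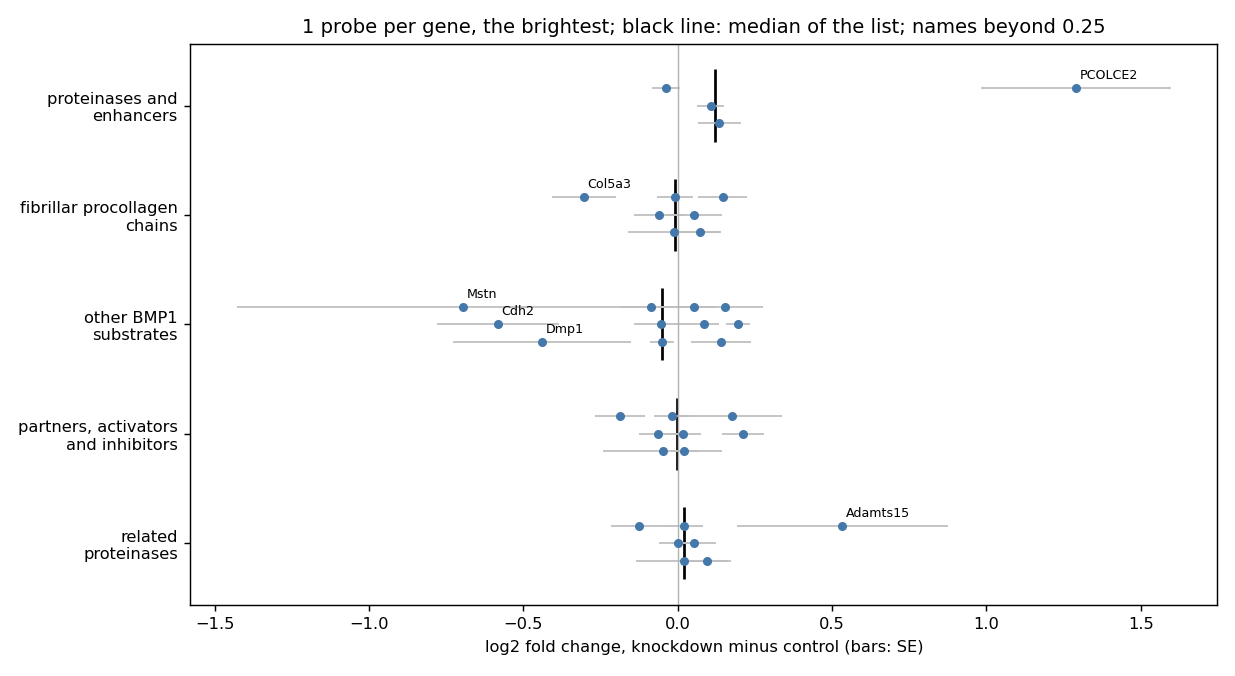
Log2 fold change (knockdown minus control, horizontal axis; bars are SE) of the tested genes of 5 lists, 1 probe per gene and 1 substrate gene not shown, with black lines at list medians and names beyond 0.25 in size. PCOLCE2 at 1.29 lies apart from the other points, which run from -0.70 (Mstn, with the widest bar) to 0.53 (Adamts15). The Mstn value rests on knockdown 2, at -8.27 against -5.48 and -5.93 in knockdowns 1 and 3. With a normexp background it turned to 0.22.

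Markers of the cells themselves and of other cells were set beside the enhancer signals; none of these markers passed limma over all probes. Of the 12 tested fibroblast markers, 8 had lower means in knockdown and 4 higher (median log2 fold change -0.09), with non-overlapping groups in 4 that were lower and 1 that was higher. Over all tested probes, 11% were lower and 11.4% higher without overlap. The mesenchymal transcription factor gene Prrx1 differed by -0.69 ± 0.23 and -0.70 ± 0.22 on its 2 probes, and the PDGF receptor gene Pdgfra by -0.50 ± 0.13, on the log2 scale (SE, 3 arrays per group). Twist2 had -0.23 ± 0.06, which turned to 0.11 with a normexp background, and Fap had 0.24 on the same scale. Of the 7 tested mural cell markers, 3 had higher and 4 lower means (median -0.07), with 2 non-overlapping higher and 3 lower. Over all tested probes these shares were 11.4% and 11%. Among these 7 were Kcnj8 at -1.31 ± 0.34, Abcc9 at -1.13 ± 0.10, Mcam at 0.78 ± 0.15 and Myh11 at 0.56 ± 0.15 (SE, 3 arrays per group). With a normexp background they became -0.49, -0.23, 0.72 and 0.50. The second Myh11 probe gave 0.19. Of the 3 tested keratinocyte markers, Krt5 (-0.04) and Krt14 (-0.05) had lower means, though both signs turned with a normexp background (0.28 and 0.12), and the Tp63 probes differed, at 0.06 ± 0.05 for the brighter and -0.56 ± 0.06 for the dimmer (SE, 3 arrays per group; limma adjusted p = 0.619 and 0.194). Summed levels, in multiples of the 75th percentile signal, follow the brightest probes of each list and not the list as a whole. The sum was 13.0 to 13.9 in controls and 14.6 to 17.6 in knockdowns for the 8 mural markers, 94.7% of it from Cspg4 and Mcam. For the 6 keratinocyte markers it was 3.56 to 3.87 against 3.87 to 3.94, 96.1% of it from Tp63. The sums overlapped for the 14 fibroblast markers (774 to 833 against 797 to 810), the 7 endothelial markers (0.271 to 0.335 against 0.295 to 0.345), the 8 macrophage markers (0.563 to 0.681 against 0.573 to 0.665), and the 6 melanocyte and Schwann cell markers (1.09 to 1.40 against 1.12 to 1.39). The part of these markers' cells in the PCOLCE2 and Pcolce signals was not tested, and in bulk RNA fewer cells of a type and less RNA per cell cannot be told apart.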

How the data were processed

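Total RNA from 6 samples was hybridised to 1-colour arrays. The authors deposited scanner output with linear intensity per spot: a processed intensity, background-subtracted and detrended, plus raw medians of spot and local background (Agilent Feature Extraction, version 11.0.1.1 in the deposited headers, while the submitters' processing notes give 11.0.0.1; array annotation on rn4 per the file headers). Outlier-flagged spots were dropped and log2 processed signals averaged per probe. From these the 75th percentile over the array's gene probes was subtracted. A probe counted as well above background on an array when over 50% of its unflagged spots did. Probes well above background on all 3 arrays of a group were tested (20773) with limma 3.58.1 in R 4.3.3 and Benjamini-Hochberg adjustment. Symbols came from RefSeq accessions without version (GRCr8, names only); 17997 of 30367 probes matched.

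Members and gene lists were chosen with earlier results of these data known. Genes named were all members, the 3 smallest p per list, 8 fixed genes (Col1a1, Col1a2, Col3a1, Lox, Dcn, Furin, Fn1, Mmp14) and the 2 nearest patterns per member; single cell markers were named after their values were seen. A further gene that this rule names is not reported here; list counts and medians include it. Exact permutation tests were two-sided over 20 splits. Replicate numbers were not treated as pairs in the reported fit. Deviations from the group means correlated at 0.10, 0.25 and -0.27 for equal numbers. The highest value for unequal numbers was 0.42, for control 3 with knockdown 1, both on slide 2. With 3 arrays a group, these values cannot settle whether pairs exist.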

Additional observations from a re-analysis of the deposited data

How the results depend on the processing

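Of 136 alternative fits of the 7 member probes with a p, 133 kept direction and side of the threshold. A further 8 alternatives gave values with no test, of which 6 kept their direction. The Bmp1 probes reversed on slide 2 alone, at 0.0322 for the brighter probe and 0.0332 for the dimmer; the cause was not tested. Array quality weights, which ran from 0.394 for control 2 to 5.92 for knockdown 3, carried 3 probes past the threshold: PCOLCE2 at 1.17 (limma adjusted p = 0.0153), a Pcolce probe at 0.16 and a Tll1 probe at 0.17. With these weights limma called 2042 probes higher and 2551 lower over the array, and with median centring 1 higher; all other fits called 0. For PCOLCE2 the adjusted p ran from 0.0153 to 0.644. Leaving out single arrays gave PCOLCE2 values from 0.98 to 1.57, Pcolce 0.08 to 0.12 and 0.09 to 0.13, Tll1 0.08 to 0.19 and 0.0032 to 0.12, and Bmp1 -0.06 to -0.01 and -0.18 to -0.0021. With the replicate number as a replicate block, PCOLCE2 stayed at 1.29 (limma adjusted p = 0.377), and 0 probes passed. PCOLCE2 was not tested with a filter on all 6 arrays. At an unadjusted limma p under 0.05, 1441 probes were higher and 1592 lower, against 885 and 635 with a normexp background, and 1539 and 1466 when quantile scaling was added to it. Taking the 75th percentile over all gene spots, added after the data were seen, gave 1198 and 1808.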
